A study of Mus musculus with 32 samples.

Results

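The fibrillar and interstitial collagens considered here are the genes whose symbols name a chain of collagen I, III, V, VI or XV in the deposited count table of mouse kidney cortex. They are Col1a1, Col1a2, Col3a1, Col5a1, Col5a2, Col5a3, Col6a1, Col6a2, Col6a3 and Col15a1, 10 of the 44 collagen genes and of the 32544 genes in the table. All 10 passed the low-count filter in every comparison. RNA was taken from the kidney cortex of 32 mice of 25 weeks, all of strain C57BL/6J-Col4a3tm1Dec, in 8 groups of 4 that cross sex, genotype and treatment. Control mice were Col4a3+/- and thus also carried 1 targeted allele, so no wild-type mice were compared. Alport mice were Col4a3-/-. The mice were given Vehicle or NR (nicotinamide riboside, a precursor of NAD+). Each library is 1 mouse, and the replicates of a group are separate mice.

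Collagens are built from 3 chains wound into a triple helix. Collagens I and III form the bulk of the interstitial fibrils, and collagen V is laid down inside those fibrils and limits their width. Collagen VI forms beaded microfilaments around cells and next to basement membranes, and collagen XV sits at the border between basement membranes and the interstitial fibrils. In a healthy kidney cortex these collagens are found in a thin interstitium and around vessels, and they build up between the tubules when the kidney scars. Collagen IV, the network collagen of the basement membrane whose Col4a3 chain is targeted in these mice, is not among them.

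Libraries held 16621944 to 27778797 counts, with a median of 22071395. Values per mouse are given as CPM, counts per 1000000 counts of the library after TMM scaling, which corrects for differences in library composition. Col4a3 lay at 139.5 to 201 CPM in vehicle-treated controls and at 48.8 to 83.2 CPM in the 16 Alport mice, where reads of the gene thus remained. The NR-treated male controls replicate 1 and replicate 3 had 59.3 and 75.2 CPM, inside the Alport range, but their ratio of Col4a3 to Col4a4, the neighbouring chain gene, was 0.537 and 0.559. That ratio was 0.293 to 0.413 in all Alport mice and 0.537 to 0.822 in all controls. The ratio was chosen after the Col4a3 levels were seen. Ddx3y, on the Y chromosome, was at 48.0 CPM or more in all males and at 1.42 CPM or less in all females. Markers of the proximal tubule, the most abundant cell type of the cortex, summed to 3386 to 19523 CPM over 8 genes and podocyte markers to 325 to 1020.4 CPM over 6 genes, whereas the fat cell genes Adipoq and Lep had 0 counts in 26 and 29 of 32 mice. Other fat cell markers had counts in all 32 mice, among them Fabp4 (9.12 to 51.9 CPM). The 7 listed fat cell markers together summed to 10.2 to 53.3 CPM. One library stood apart from its group: the NR-treated male Alport mouse replicate 1 had 2154 CPM over the 10 collagens, against 287 to 662 CPM in the other 3 mice of its group. Counts of calls among the 10 collagens in comparisons that include it are given with and without it.

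Col1a1 lies at chr11:94936224-94953042 (+) and Col1a2 at chr6:4504814-4541544 (+) of mm10. Col3a1 at chr1:45311538-45349706 (+) and Col5a2 at chr1:45374321-45503282 (-) are neighbours on opposite strands with 24.6 kb between them, and Col6a3 lies farther along the same chromosome at chr1:90765923-90843971 (-). Col5a1 is at chr2:27886425-28039514 (+), Col5a3 at chr9:20770050-20815067 (-) and Col15a1 at chr4:47208161-47313167 (+). Col6a2 at chr10:76595762-76623630 (-) and Col6a1 at chr10:76708792-76726168 (-) are neighbours on the same strand with 85.2 kb between them. Coordinates are those of the GENCODE annotation of that build. Exons of Col3a1 overlap those of a miRNA gene on the same strand (Gm47302), and exons of Col5a1 (2810430I11Rik, Gm13372) and Col15a1 (Gm12426) overlap genes on the other strand. None of these 4 genes is in the count table, and the strand used in counting is not given in the sources used here, so reads of the overlaps cannot be told apart.

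RefSeq promoter windows of build GRCm38.p6, which is mm10, were found for 8 of the 10 genes, in 9 windows. The 250 bases before the start site of 4 of them are shown because they belong to a fibril gene that rose strongly (Col3a1), to collagen V genes with different patterns (Col5a1, Col5a3) and to the interstitial border collagen (Col15a1), and because they hold no annotated exon. Capitals mark the letters of a CCAAT box (CCAAT), of a TATA box (TATAAA), of a GC box bound by Sp factors (GGGCGG) and of the core of a SMAD element (CAGAC), or the reverse complement of any of them. Both strands were searched, and no matches overlap in these 4 windows. The windows are chr1:45311288-45311537 (+), chr2:27886175-27886424 (+), chr9:20815068-20815317 (-) and chr4:47207762-47208011 (+), the last of which ends before a RefSeq start upstream of the GENCODE start of Col15a1.
Col3a1: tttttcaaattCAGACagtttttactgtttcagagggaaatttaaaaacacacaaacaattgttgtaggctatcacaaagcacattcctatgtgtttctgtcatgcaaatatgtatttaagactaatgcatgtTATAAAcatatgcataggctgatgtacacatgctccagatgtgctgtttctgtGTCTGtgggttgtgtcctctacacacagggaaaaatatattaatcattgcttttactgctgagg
Col5a1: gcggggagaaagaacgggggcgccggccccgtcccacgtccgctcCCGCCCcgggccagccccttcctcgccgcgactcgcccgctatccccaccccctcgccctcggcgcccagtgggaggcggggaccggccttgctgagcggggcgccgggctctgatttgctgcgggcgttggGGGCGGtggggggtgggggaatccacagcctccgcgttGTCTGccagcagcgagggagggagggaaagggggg
Col5a3: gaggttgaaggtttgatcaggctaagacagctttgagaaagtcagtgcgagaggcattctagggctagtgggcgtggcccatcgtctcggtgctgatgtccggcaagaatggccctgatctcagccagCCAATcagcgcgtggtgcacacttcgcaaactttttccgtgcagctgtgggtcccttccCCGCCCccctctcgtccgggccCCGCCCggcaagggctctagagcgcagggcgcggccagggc
Col15a1: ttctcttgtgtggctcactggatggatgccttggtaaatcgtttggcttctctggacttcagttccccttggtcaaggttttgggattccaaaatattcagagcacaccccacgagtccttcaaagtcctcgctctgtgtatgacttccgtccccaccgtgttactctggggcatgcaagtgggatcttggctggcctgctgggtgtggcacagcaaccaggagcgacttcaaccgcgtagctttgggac
Counted from the start site, the Col3a1 window holds the TATA box letters at position -117 and the SMAD letters at -239 and -64. In the Col5a1 window the GC box letters start at -205 and -73 and the SMAD letters at -35. The Col5a3 window has the CCAAT box letters at -122 and GC box letters at -63 and -41, and the Col15a1 window has none of the 4 motifs. Over all 9 windows of these collagens, CCAAT box letters were found in 2, TATA box letters in 1, GC box letters in 5 and SMAD letters in 5. Of all 32851 RefSeq windows of the same length, 33.8%, 12.4%, 32.7% and 42.2% hold them. A match is only a run of letters, and no binding was measured.

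In vehicle-treated Alport mice the interstitial collagens were far more abundant than in vehicle-treated controls. All 10 rose in males, by 1.66-fold (Col5a2) to 33.2-fold (Col1a1), and 9 of 10 rose in females, by 3.02-fold (Col6a3) to 15.6-fold (Col1a1), the exception being Col5a2. Their summed level went from 106 to 135 CPM in male controls to 1063 to 1622 CPM in male Alport mice, and from 141 to 244 CPM to 882 to 1499 CPM in females. A gene is said to rise or fall where edgeR's quasi-likelihood test gave an adjusted p (Benjamini-Hochberg over all genes tested) under 0.05. By that call 26.8% of 15286 genes rose in males and 24.0% of 15709 genes in females. The median log2 fold change of the 10 collagens was 3.33 in males and 2.71 in females, and that of all genes was -0.00 in both. In males no collagen overlapped between Alport and control mice and in females only Col5a2 did, where 22.1% and 20.7% of all genes were higher in Alport mice without overlap. RNA of whole cortex cannot tell more cells that make a collagen from more collagen RNA per cell.

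**Figure D1:**
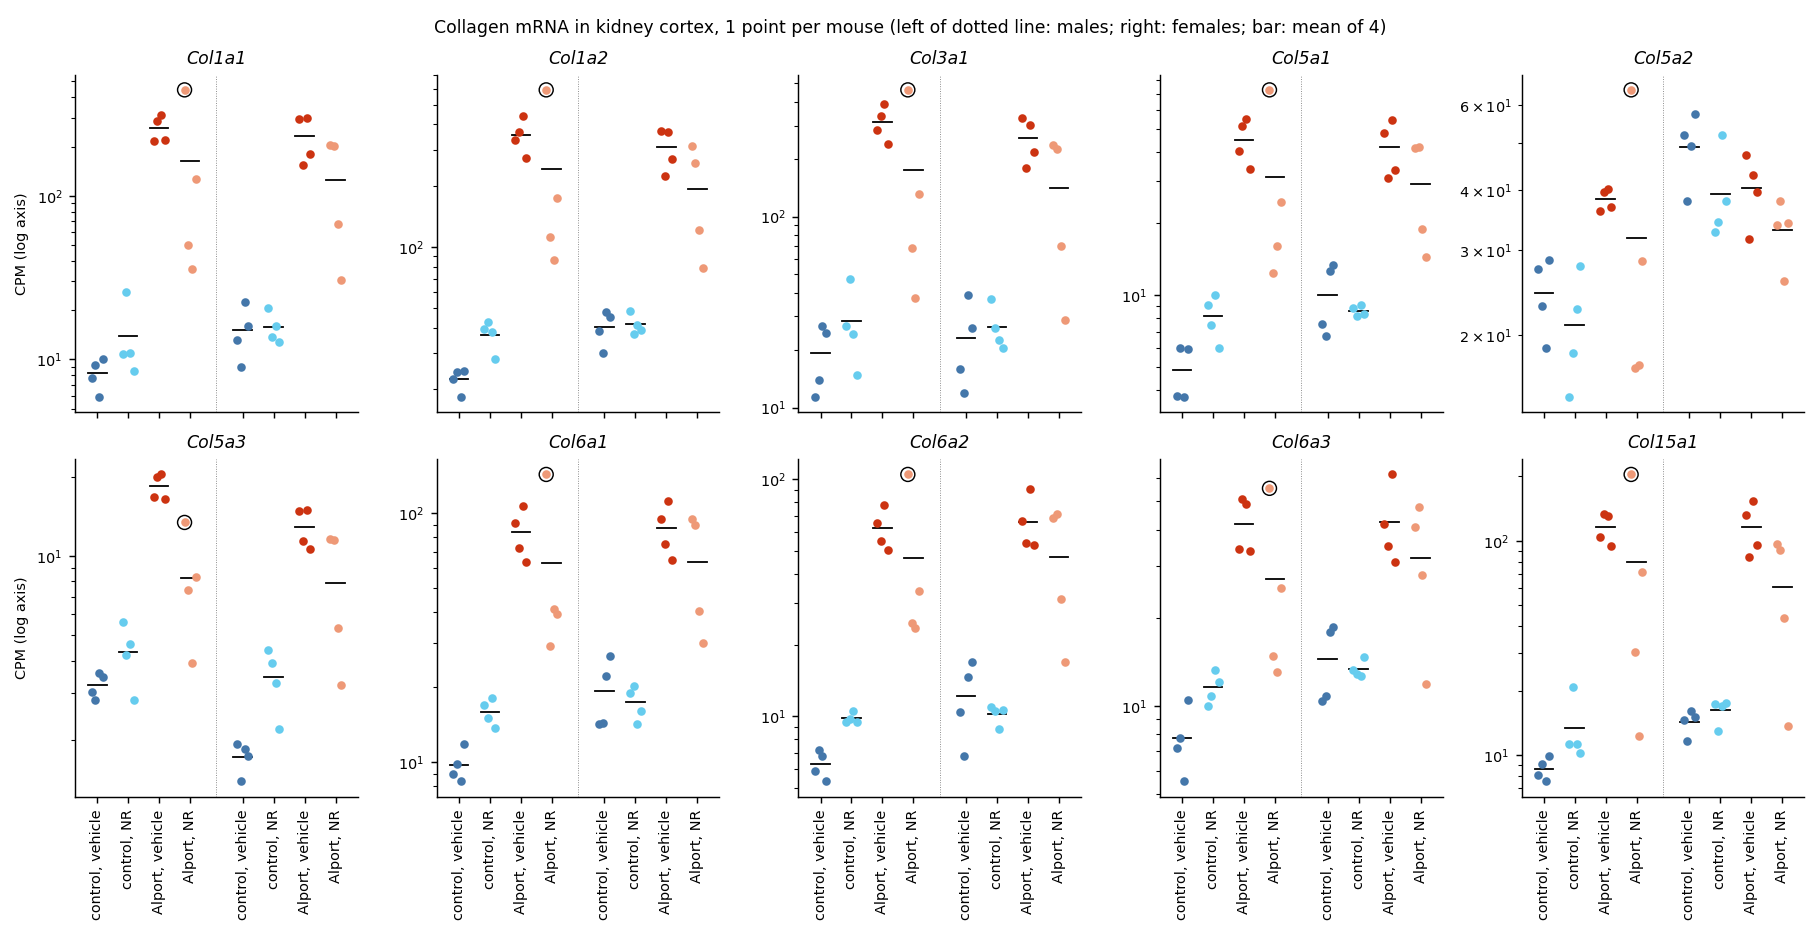
CPM of the 10 collagens in each of the 32 mice, on a log axis, by group, with males left and females right of the dotted line. Points are mice, bars are means of 4, and the ringed point is the NR-treated male Alport mouse replicate 1. Vehicle-treated Alport mice lie above vehicle-treated controls for every gene except Col5a2 in females, and NR-treated Alport mice are more widely spread than vehicle-treated ones for Col1a1, Col3a1 and Col15a1 in both sexes.

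Collagen I, the main fibril protein, is made of 2 chains from Col1a1 and 1 from Col1a2. Col1a1 was at 7.65, 9.27, 5.92 and 10.1 CPM in the 4 vehicle-treated male controls and at 217, 288, 309.7 and 219 CPM in the male Alport mice. In females it was at 13.1, 9.05, 22.5 and 16.1 CPM in controls and at 293, 155, 299 and 181 CPM in Alport mice. In both sexes the lowest Alport mouse was thus well above the highest control. The log2 fold change was 5.05 (SE 0.19, adjusted p = 8.17e-09) in males and 3.97 (SE 0.31, adjusted p = 1.91e-05) in females, the largest of the 10 genes in each sex. Col1a2 was at 18.4 to 24.5 CPM in male controls and 273 to 441 CPM in male Alport mice, a log2 fold change of 4.07 (SE 0.16, adjusted p = 1.02e-08). In females it was at 30.3 to 48.2 and 224 to 369.5 CPM, with a log2 fold change of 2.96 (SE 0.19, adjusted p = 9.53e-06).

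Col3a1 encodes the chain of collagen III, which shares fibrils with collagen I. In male controls it was at 11.4, 13.9, 26.9 and 24.6 CPM and in male Alport mice at 283, 335, 390.0 and 241 CPM, which is 17.3-fold higher (log2 4.11, SE 0.27, adjusted p = 3.67e-07). Female controls had 15.9, 11.9, 38.9 and 26.0 CPM and female Alport mice 328, 179, 303 and 217 CPM, 11.3-fold higher (log2 3.50, SE 0.35, adjusted p = 5.55e-05). No mouse of a sex overlapped between the genotypes, although controls of both sexes differed more than 2-fold among themselves.

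The 3 collagen V genes, whose chains combine in different trimers, did not move alike. Col5a1, the chain of the common trimers, was at 3.75 to 6.03 CPM in male controls and 33.9 to 54.9 CPM in male Alport mice (log2 3.28, SE 0.20, adjusted p = 2.09e-07), and at 6.72 to 13.4 and 31.1 to 54.1 CPM in females (log2 2.09, SE 0.25, adjusted p = 1.35e-04). Col5a2, its partner, was at 27.4, 23.0, 18.8 and 28.6 CPM in male controls and at 36.2, 39.6, 40.3 and 36.9 CPM in male Alport mice. In females it was at 52.0, 38.0, 49.4 and 57.7 CPM in controls and at 47.4, 31.6, 43.1 and 39.6 CPM in Alport mice. The male groups were close together but did not overlap, and the female groups overlapped, with the Alport mice lower on average. The male log2 fold change was 0.73 (SE 0.12, adjusted p = 3.11e-04). The female one was -0.25 (95% interval -0.56 to 0.07, adjusted p = 0.179), although without the female control replicate 2 it passed as a fall (-0.36, adjusted p = 0.0415).

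Col5a3, the chain of a rarer collagen V trimer, was the least abundant of the 10. Male controls had 3.03, 2.82, 3.60 and 3.47 CPM and male Alport mice 16.7, 19.9, 20.4 and 16.5 CPM (log2 2.59, SE 0.13, adjusted p = 5.52e-08). Female controls had 1.93, 1.39, 1.84 and 1.74 CPM and female Alport mice 14.8, 11.4, 14.9 and 10.6 CPM (log2 2.95, SE 0.17, adjusted p = 6.43e-06). Both differences were several times the spread within groups, and Col5a3 was the only collagen of the 10 whose estimate was higher in females (7.70-fold) than in males (6.04-fold). The difference between the sexes did not pass the test for Col5a3, as given further on.

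The collagen VI chains of Col6a1, Col6a2 and Col6a3 are joined in the same trimer before it is built into microfilaments. Col6a1 was at 8.98, 9.83, 8.38 and 11.8 CPM in male controls and at 91.5, 72.2, 107 and 63.7 CPM in male Alport mice. Female controls had 14.2, 14.3, 22.2 and 26.7 CPM and female Alport mice 95, 75.5, 112 and 64.7 CPM. The sexes thus reached similar Alport levels from control levels that were higher in females. Log2 fold changes in males and females were 3.18 (SE 0.17) and 2.20 (SE 0.23) for Col6a1, 3.39 (SE 0.15) and 2.48 (SE 0.27) for Col6a2, and 2.52 (SE 0.20) and 1.60 (SE 0.25) for Col6a3. The highest adjusted p of these 6 values was 5.49e-04, for Col6a3 in females. Col6a2 went from 5.33 to 7.22 CPM to 50.6 to 78.3 CPM in males and from 6.83 to 17 to 53.1 to 91.3 CPM in females. Col6a3 went from 5.52 to 10.5 to 33.8 to 50.8 CPM in males and from 10.4 to 18.6 to 31.0 to 61.8 CPM in females.

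Col15a1, whose product joins basement membranes to the interstitium, was at 8.08, 9.10, 7.54 and 9.85 CPM in male controls and at 104, 134, 131 and 94.4 CPM in male Alport mice. Female controls had 14.5, 11.6, 16.1 and 15.0 CPM and female Alport mice 132, 84.3, 153 and 95.2 CPM. It rose 14.2-fold in males (log2 3.83, SE 0.14, adjusted p = 8.17e-09) and 8.35-fold in females (log2 3.06, SE 0.19, adjusted p = 9.09e-06). Its rise was thus close to that of Col1a2 and Col3a1 in both sexes.

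**Figure D2:**
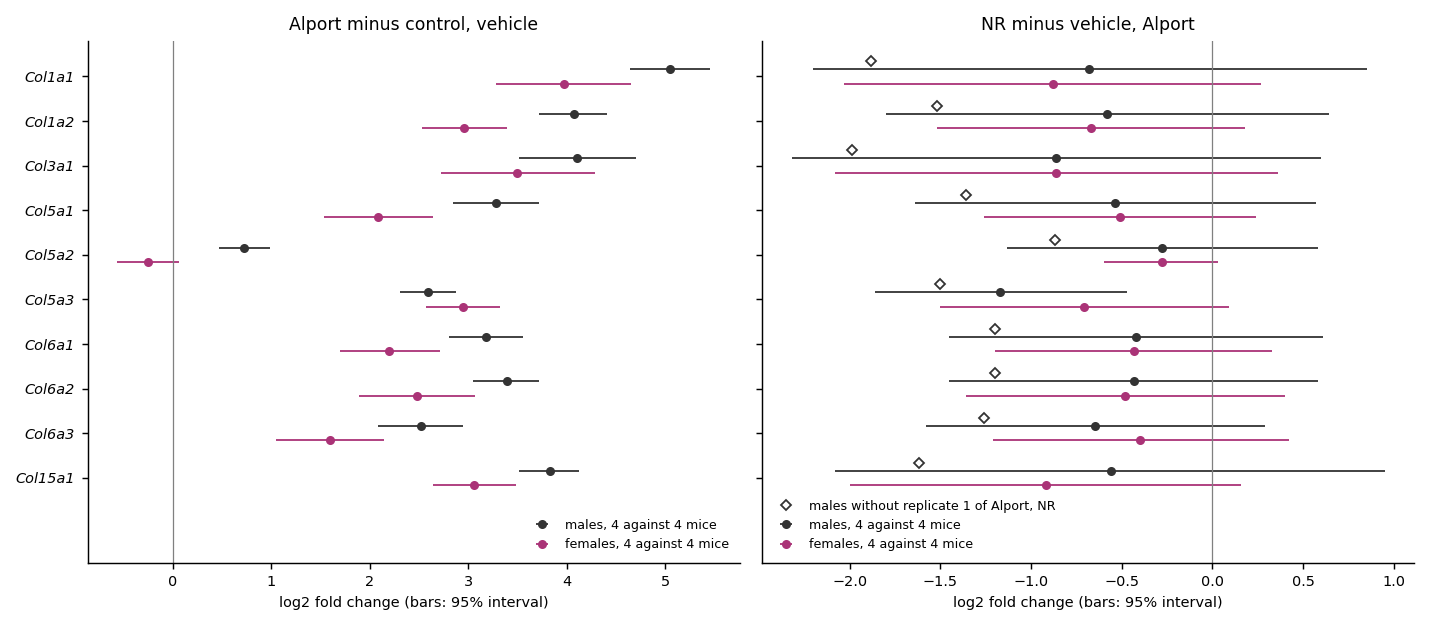
Log2 fold changes of the 10 collagens with 95% intervals, in males (dark) and females (purple), for Alport against control on vehicle (left) and NR against vehicle in Alport mice (right). Open diamonds give the male NR values without the NR-treated Alport mouse replicate 1. On the left 19 of 20 intervals lie above 0, and on the right all intervals but that of Col5a3 in males include 0.

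To set the genes side by side, CPM was divided by the length of each gene's annotated exons in kb, which counts the exons of all transcripts together. Per kb, Col5a2 led in vehicle-treated controls, at 2.55 ± 0.465 CPM per kb in males and 5.13 ± 0.863 CPM per kb in females (SD, n = 4), followed by Col6a1 at 2.23 ± 0.345 and 4.42 ± 1.40 CPM per kb. The mice of these neighbours overlapped in both sexes. Col5a3 was last, at 0.475 ± 0.0539 CPM per kb in males and 0.253 ± 0.0347 CPM per kb in females. In vehicle-treated Alport mice Col1a1 led at 39.4 ± 7.25 CPM per kb in males and 35.3 ± 11.4 in females. It was followed by Col3a1 (31.8 ± 6.58 and 26.2 ± 7.16 CPM per kb), Col1a2 (28.5 ± 5.66 and 24.8 ± 5.78), Col6a1 (19.1 ± 4.48 and 19.8 ± 4.75) and Col15a1 (18.2 ± 3.12 and 18.3 ± 5.06). Each of these overlapped with its neighbour in the order, and Col15a1 was above Col6a2 (7.50 ± 1.48 and 7.96 ± 2.13 CPM per kb) without overlap in both sexes.

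The order of the genes therefore differed between the genotypes. Of the summed CPM per kb of the 10 genes, Col5a2 made up 18.8% ± 2.98 in male and 22.0% ± 3.49 in female controls on vehicle, but 2.54% ± 0.347 and 2.93% ± 0.422 in vehicle-treated Alport mice. Col1a1 went the other way, from 9.16% ± 1.37 and 9.53% ± 1.62 to 24.6% ± 1.72 and 23.7% ± 1.73. Col3a1 made up 14.4% ± 5.81 and 9.45% ± 2.92 in controls and 19.8% ± 0.592 and 17.8% ± 1.20 in Alport mice. Shares add up to 100% and so are not independent of each other, and they were not tested as such.

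**Figure D3:**
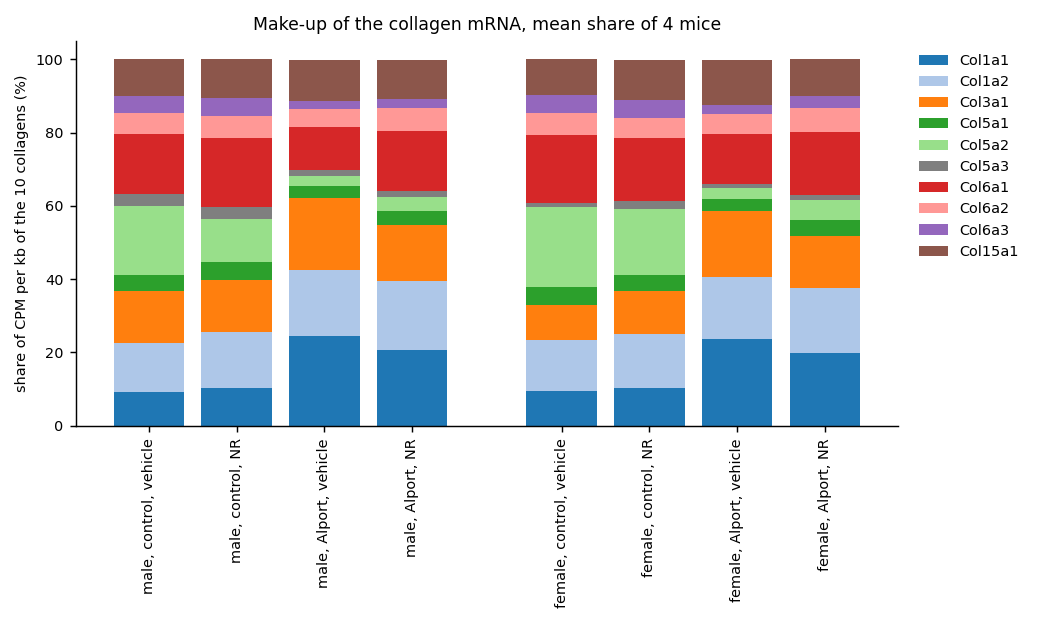
Mean share of each of the 10 genes in their summed CPM per kb (percent), by group, 4 mice each. Col5a2 is the widest band in controls on vehicle of both sexes (18.8% and 22.0%) and a narrow one in vehicle-treated Alport mice (2.54% and 2.93%), where Col1a1 is the widest (24.6% and 23.7%).

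Whether chains of the same or a partner collagen kept their proportions was tested on the log2 ratio of their counts in each mouse. Gene length cancels in the difference of this ratio between groups, but not in the ratio itself. The test was an exact two-sided permutation test within each sex over all 4900 groupings, whose smallest possible p is 4.08e-04, and p-values were adjusted over the 18 tests of 6 ratios in 3 comparisons. In Alport against control mice on vehicle, 4 of 6 ratios fell. Col5a2 to Col5a1 went from 2.34 ± 0.38 in male and 2.34 ± 0.37 in female controls to -0.21 ± 0.25 and -0.02 ± 0.23 in Alport mice (log2 ratio, SD, n = 4). Controls thus had 3.80 to 7.22 counts of Col5a2 for each of Col5a1, and Alport mice 0.734 to 1.18. The change was -2.45 (exact permutation test, adjusted p = 0.00245).

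Col1a2 to Col1a1 was at 1.55, 1.39, 1.63 and 1.28 in male controls and 0.62, 0.36, 0.51 and 0.32 in male Alport mice, and at 1.56, 1.74, 1.10 and 1.49 against 0.33, 0.54, 0.30 and 0.59 in females (log2 ratio). The groups did not overlap, and the change of -1.02 was nearly the same in males (-1.01) and females (-1.03; exact permutation test, adjusted p = 0.00245). Per kb this ratio was above 1 in controls (1.45 in males, 1.47 in females) and below 1 in Alport mice (0.723 and 0.716). In counts, however, Col1a2 stayed above Col1a1 in every vehicle-treated mouse. There were 2.43 to 3.10 and 2.14 to 3.34 counts of Col1a2 for each of Col1a1 in male and female controls. In male and female Alport mice there were 1.25 to 1.54 and 1.23 to 1.51. Which chain was higher thus depended on the exon lengths used, 12.4 kb for Col1a2 and 6.56 kb for Col1a1. The fall of the ratio did not depend on them. Col3a1 to Col1a1 fell by 0.63 on the log2 scale (exact permutation test, adjusted p = 0.00245), with -0.89 in males and -0.37 in females. Col6a3 to Col6a1 fell by 0.63 in each sex (exact permutation test, adjusted p = 0.00367).

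The ratio of Col6a2 to Col6a1 differed by 0.26 on the log2 scale between Alport and control mice (exact permutation test, adjusted p = 0.0906), and passed only without the male control replicate 3. Col5a3 to Col5a1 moved in opposite directions, with -0.71 in males and 0.81 in females and 0.05 over both (exact permutation test, adjusted p = 0.932). That difference between the sexes was not tested.

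**Figure D4:**
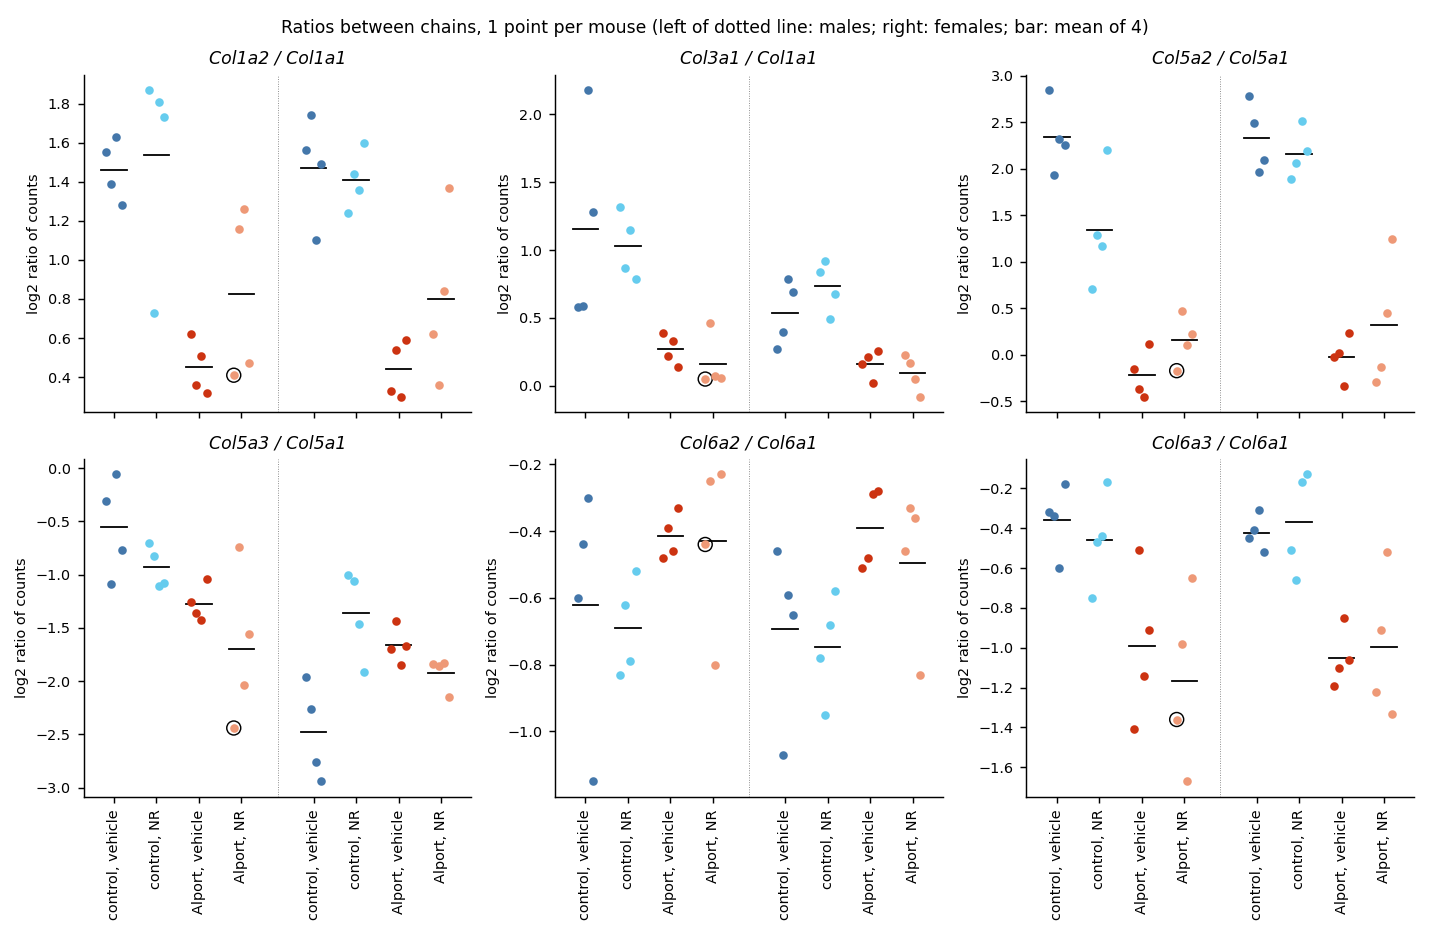
Log2 ratio of counts for 6 pairs of chains in each of the 32 mice, males left and females right of the dotted line. Bars are means of 4 and the ringed point is the NR-treated male Alport mouse replicate 1. The Col5a2 to Col5a1 panel shows controls on vehicle at 1.93 or above and vehicle-treated Alport mice at 0.24 or below in both sexes.

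Genes that act with these collagens were followed in fixed lists. Of the other fibrillar collagens 3 of 5 could be tested, and Col27a1, a cartilage fibril collagen, fell in both sexes (log2 -0.87, adjusted p = 0.00130, in males and -0.73, adjusted p = 0.00738, in females), while the other two did not pass. A further list held fibril-associated collagens, relatives of collagens VI and XV, and the collagen VIII genes. Of its 7 testable genes, 6 rose in males and 7 in females. Foremost were Col8a2 (3.79 in males, 2.79 in females, log2) of vessel walls and Col12a1 (2.79 and 1.96), which coats fibrils. The medians of this list were 1.86 and 1.34 on the log2 scale. Partners of the fibril rose in 8 of 10 genes in each sex, among them fibronectin Fn1 (3.33 and 2.64) and the matrix protein Thbs2 (3.05 and 2.23), with list medians of 2.63 and 2.08.

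Enzymes that act on the finished chain outside the cell and those that fold it inside the cell were listed apart. Of genes for propeptide cleavage and crosslinking 9 of 11 rose in males and 8 of 12 in females, with the lysyl oxidases Lox (log2 4.33 and 2.89) and Loxl2 (3.12 and 2.19) foremost and list medians of 2.17 and 1.08. Among 19 genes of chain modification and folding, 9 rose and 2 fell in males and 10 rose and 2 fell in females, with list medians of 0.25 and 0.33. Those that rose most were Fkbp10 (2.38 and 1.86), a prolyl isomerase of the endoplasmic reticulum, and Plod2 (1.22 and 1.68), a lysyl hydroxylase. P3h2, a prolyl hydroxylase that acts on collagen IV (-0.50 and -0.61), and Mia3 (-0.36 and -0.25), which loads procollagen for export, fell. The difference between the lists was not tested. Of 8 genes of collagen turnover 6 rose and 1 fell in each sex. The protease inhibitor Timp1 rose by 7.08 and 5.33 and the gelatinase Mmp2 by 4.36 and 3.62 on the log2 scale, whereas Timp3 fell (-0.45 and -0.46). Timp1 was near the floor in the mouse with the lowest level, at 0.0427 CPM.

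Markers of cell types moved with the collagens. Of fibroblast and pericyte markers 9 of 9 rose in males and 8 of 9 in females, with Fbln1 (log2 3.63 and 2.37) and Dpt (2.60 and 1.87) foremost. Their sum was at 127 to 138 CPM in male controls and 326 to 613 CPM in male Alport mice, and at 176 to 217 and 344 to 456 CPM in females. All 10 macrophage markers rose in both sexes, led by Lyz2 (4.06 and 3.54) and Mrc1 (3.54 and 2.89), and their sum went from 80.6 to 104 to 580.2 to 784 CPM in males and from 97.3 to 176 to 463 to 837 CPM in females. Lymphocyte markers rose in 7 of 7 and 5 of 7, from a low level: their sum was 3.93 to 4.95 CPM in male controls and 9.57 to 25.1 CPM in male Alport mice. Cd3g (3.32 and 2.07) and Cd3e (2.40 and 1.78) of T cells were foremost.

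Endothelial markers rose in 7 of 8 genes in males and 4 of 8 in females, with Cdh5 (log2 1.02 and 0.72) and Pecam1 (0.84 and 0.55) foremost. Proximal tubule markers fell in 7 of 8 genes in each sex, Slc5a12 (-1.27 and -1.11) and Cubn (-1.18 and -1.07) most, and 1 rose in males. Their sum was 17657 to 19523 CPM in male controls and 6338 to 10105 CPM in male Alport mice. Of 7 markers of the loop and collecting duct 3 fell in males and 2 in females, Slc12a3 (-0.80 and -0.94) and Scnn1g (-0.33 and -0.32) in both. Falls were common among all genes. In males 7790 of 15286 genes were called, 52.5% of them higher, and in females 7199 of 15709, 52.3% of them higher. Of the fat cell markers only Fabp4, also made by endothelium, was tested in both sexes, and it rose (0.85 and 0.83). Synpo, an actin-binding protein of podocytes, rose as well (1.43 and 0.86). The part of these cell types in the collagen values was not tested.

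**Figure D5:**
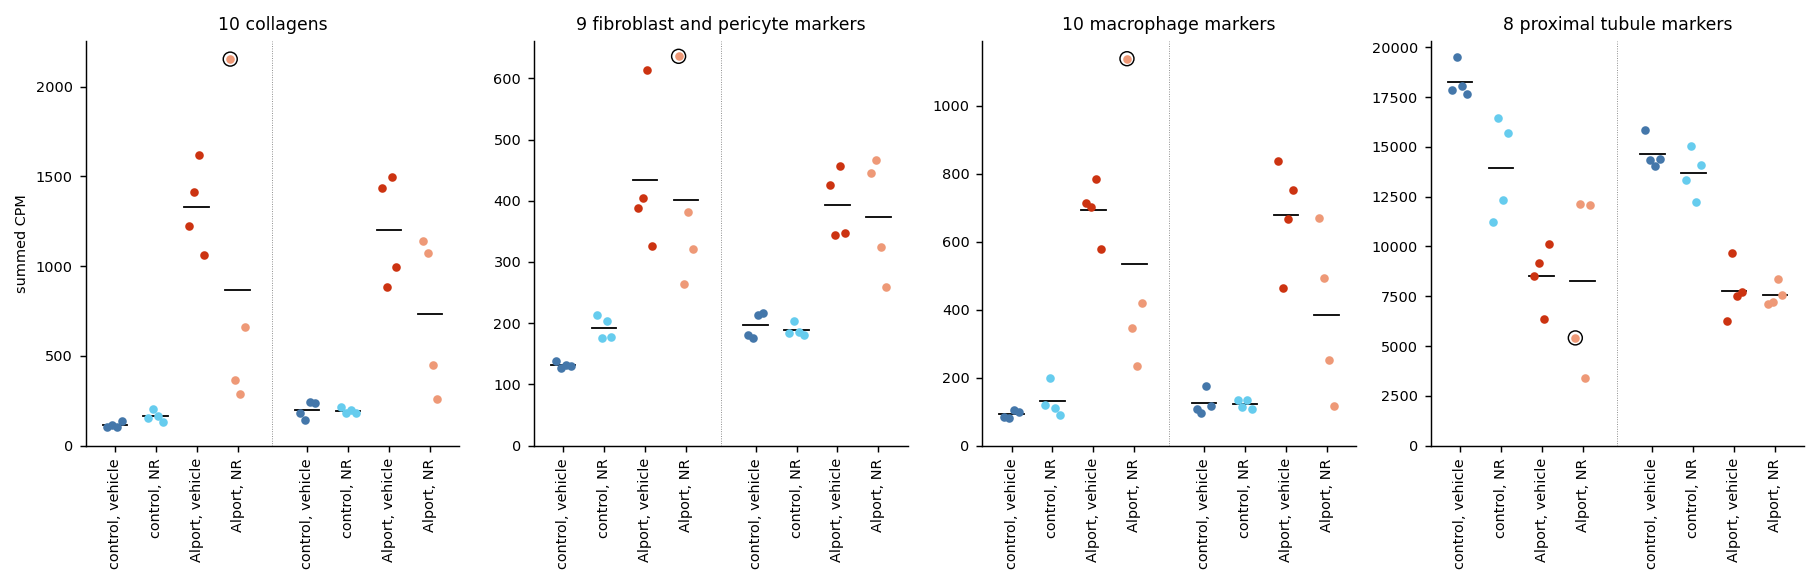
Summed CPM of the 10 collagens, of 9 fibroblast and pericyte markers, 10 macrophage markers and 8 proximal tubule markers in each of the 32 mice. Males are left and females right of the dotted line, bars are means of 4, and the ringed point is the NR-treated male Alport mouse replicate 1, which is highest for the first 3 sums (2154, 636 and 1139 CPM).

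Before disease is considered, the sexes differed. Among vehicle-treated controls, 8 of the 10 collagens were higher in females than in males and 1 was lower, where 15.9% of 14990 genes were higher and 15.8% lower. The 8 were Col1a1, Col1a2, Col5a1, Col5a2, Col6a1, Col6a2, Col6a3 and Col15a1, with log2 differences of 0.75 (Col15a1, SE 0.13) to 1.06 (Col5a1, SE 0.25). Col5a2 was 2.05-fold higher (adjusted p = 3.20e-04), with the lowest female at 38.0 and the highest male at 28.6 CPM. Col5a3 was lower in females (log2 -0.88, SE 0.20, adjusted p = 0.00538), with all 4 females at 1.93 CPM or less and all males at 2.82 CPM or more. Col3a1 differed by 0.30 (95% interval -0.47 to 1.06, adjusted p = 0.553). In a fit of all 32 mice, Col5a2 alone passed, while the differences of the other 8 genes were between -0.91 and 1.04.

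Whether the Alport difference itself differed between the sexes was tested as an interaction over the 16 vehicle-treated mice, with a limit of 2-fold besides the adjusted p. The difference was smaller in females for Col1a2 (log2 -1.14, SE 0.25, adjusted p = 0.0486) and Col5a2 (-1.01, SE 0.20, adjusted p = 0.0320), 2 of 10 genes where 0.161% of 16152 genes passed in that direction. Of the other 8 collagens 7 had negative values, from -1.23 (Col5a1, adjusted p = 0.139) to -0.64 (Col3a1, adjusted p = 0.654), and Col5a3 had 0.32 (95% interval -0.11 to 0.75, adjusted p = 0.601). Both calls remained in only 1 of 16 omissions of a mouse, that of the female control replicate 2. The omissions of the female Alport replicates 1 and 3, the male Alport replicate 4 and the male control replicates 1 and 4 left 1 call, and the other 10 left 0. With RLE size factors in place of TMM none passed, and in a fit of all 32 mice none did either. Since the same control mice enter the comparison of the sexes above, the 2 results are not independent.

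NR treatment of Alport mice left the collagens with a wide spread. In the main edgeR fits, with no mouse of a comparison left out, none of the 10 passed in males, in females or over both sexes. All 10 estimates were negative in each. Over both sexes Col5a3 alone passed by DESeq2 (adjusted p = 0.0125), limma-voom (adjusted p = 0.0270) and edgeR's fit of all 32 mice (adjusted p = 0.00931). No gene of 15500 passed in males (0%), where 785 had an unadjusted p under 0.05 and DESeq2 called 62. In females 0.477% of 15712 genes passed and over both sexes 1.48% of 16189. Male log2 differences were -1.17 (Col5a3) to -0.28 (Col5a2) with a lowest adjusted p of 0.791, and female ones -0.92 (Col15a1) to -0.28 (Col5a2) with a lowest adjusted p of 0.340. Without overlap between NR and vehicle, only Col5a3 in males was lower, where 1.45% of all genes were, and none was in females, where 4.05% of all genes were.

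The values per mouse show the spread. Col1a1 was at 444, 49.9, 35.9 and 126 CPM in the 4 NR-treated male Alport mice, against 217 to 309.7 CPM on vehicle, and at 204, 200.3, 67.2 and 30.5 CPM in the NR-treated females, against 155 to 299 CPM. Col3a1 was at 461, 68.4, 37.7 and 131 CPM in males (241 to 390.0 on vehicle) and at 238, 225, 69.8 and 28.9 CPM in females (179 to 328 on vehicle). In males 3 of 4 NR-treated mice were below every vehicle-treated mouse and replicate 1 was above every one, and in females replicates 3 and 4 were below every vehicle-treated mouse and replicates 1 and 2 were among them. The 95% intervals of Col1a1 ran from -2.20 to 0.85 in males and from -2.03 to 0.27 in females on the log2 scale, so that differences of either sign were compatible with them.

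Col15a1 was at 204, 30.4, 12.3 and 71.2 CPM in NR-treated male Alport mice and at 96.6, 90.6, 43.6 and 13.6 CPM in females, again with replicate 1 far above the other males. Col6a1 was at 143, 29.4, 41.3 and 39.5 CPM in males and at 95.1, 89.8, 40.3 and 30.1 CPM in females. Col5a2 was at 64.6, 17.1, 17.3 and 28.5 CPM in males and 33.9, 38.0, 25.9 and 34.2 CPM in females, the narrowest spread of the 10 in females. Col5a3 was at 13.4, 7.41, 3.90 and 8.33 CPM in males, all below the 16.5 to 20.4 CPM on vehicle, and at 11.6, 11.5, 5.32 and 3.22 CPM in females. For Col5a3 the male replicate 1 was thus high in its group but below the vehicle-treated mice. Over both sexes it had the lowest adjusted p of the 10 (log2 -0.93, SE 0.25, adjusted p = 0.0759), and it passed without the female NR-treated replicate 1 (-1.06, adjusted p = 0.0422).

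The result in males rested on 1 mouse, which stood out by its collagen level itself. Its omission therefore lowers the NR-treated group for these same genes by construction. The shares of all genes given beside the calls are thus not a like yardstick for them. Without the NR-treated male Alport replicate 1, 8 of 10 collagens were lower with NR in males, by 1.83-fold (Col5a2, adjusted p = 0.0494) to 3.97-fold (Col3a1, adjusted p = 0.0437), where 1.85% of 15662 genes were lower. Col1a1 (log2 -1.88, adjusted p = 0.0521) and Col15a1 (-1.62, adjusted p = 0.115) did not pass. The other 7 omissions of a mouse from that comparison gave 0 calls. Over both sexes 8 of 10 were lower without that mouse, by 1.45-fold (Col5a2) to 2.56-fold (Col3a1), where 7.59% of 16391 genes were lower, and Col6a2 (adjusted p = 0.0534) and Col6a3 (adjusted p = 0.0649) did not pass. The same mouse had the highest macrophage marker sum of all 32 mice, 1139 CPM against 235 to 419 CPM in the rest of its group, and the highest fibroblast and pericyte marker sum, 636 CPM against 264 to 381 CPM. Its proximal tubule marker sum of 5408 CPM lay within the range of its group (3386 to 12109.7 CPM). Without it, the genes of the lists that were lower with NR in males were the macrophage markers Itgam, C1qc, Mrc1 and Cd14, the turnover genes Mmp2, Mmp14, Ctsk and Mrc2, the partners Bgn and Sparc, the propeptide proteases Adamts2 and Bmp1, Plod2 and Col8a1, and none of the 9 fibroblast and pericyte markers, whose median was -0.57 on the log2 scale. Over both sexes without it, 6 of 10 macrophage markers, 3 of 9 fibroblast and pericyte markers (Cspg4, Gli1 and Dpt) and 3 of 8 lymphocyte markers were lower, and 3 of 8 endothelial markers (Kdr, Flt1 and Tie1) were higher. The mouse left out also had the highest lymphocyte marker sum of its group (15.9 CPM against 4.38 to 8.46 CPM). Its omission thus lowers the macrophage, fibroblast and pericyte, and lymphocyte markers of the NR-treated males by construction as well.

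A test of whether NR acted differently in the sexes called none of the 10 collagens and no gene of 16189 (0%), where 363 genes had an unadjusted p under 0.05 and DESeq2 called 1. The estimates (female minus male) were -0.38 to 0.44 on the log2 scale, and the intervals were wide, from -2.19 to 1.75 for Col1a1. Without the NR-treated male Alport replicate 1 none of the 10 passed either, but all 10 estimates were positive, from 0.55 (Col5a2) to 1.09 (Col3a1), and most had thus turned sign, such as that of Col1a1 from -0.22 to 0.96. As that mouse stood out by its collagen level, its omission lowers the male NR-treated group by construction. The proportions of the chains did not pass either in NR-treated against vehicle-treated Alport mice, in 0 of 6 ratios, with the largest difference for Col1a2 to Col1a1 (0.37 on the log2 scale, exact permutation test, adjusted p = 0.102). Without the NR-treated male replicate 1 none passed as well, with 0.44 for that ratio. One ratio passed without the male NR-treated replicate 2 (Col5a3 to Col5a1, -0.50, adjusted p = 0.00441 in the exact permutation test) or without the female NR-treated replicate 2 (Col1a2 to Col1a1, 0.44, adjusted p = 0.0441 in the exact permutation test). No gene of the collagen lists or marker lists passed with NR in Alport mice of either sex alone. Over both sexes, Lum, a proteoglycan that binds fibrils, fell (log2 -1.36, SE 0.33, adjusted p = 0.0479) and Flt1, a receptor for vascular endothelial growth factors, rose (0.53, SE 0.11, adjusted p = 0.0218).

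Set against vehicle-treated controls, NR-treated Alport mice still had more collagen RNA. In males 9 of 10 genes were higher, by 2.66-fold (Col5a3) to 20.6-fold (Col1a1), where 14.4% of 15077 genes were higher, and Col5a2 differed by 0.44 on the log2 scale (adjusted p = 0.448). In females 9 were higher, by 2.24-fold (Col6a3) to 8.29-fold (Col1a1), where 11.9% of 15381 genes were higher and 11.6% lower. Of these 9, only 5 were higher without overlap. For Col3a1, Col6a2, Col6a3 and Col15a1 the NR-treated female replicate 4 lay within the range of the controls. It had 28.9 CPM of Col3a1 (controls 11.9 to 38.9), 11.9 CPM of Col6a3 (10.4 to 18.6) and 13.6 CPM of Col15a1 (11.6 to 16.1). Col5a2 was lower in females (log2 -0.57, SE 0.15, adjusted p = 0.0192), although 1 NR-treated mouse at 38.0 CPM reached the lowest control. Without the male control replicate 1 or 2, 5 of 10 passed in males, and without the female control replicate 1, 6 of 10 did in females. Col6a3, the smallest female rise (adjusted p = 0.0475), lost its call in 7 of 8 omissions of a mouse, all but that of the NR-treated replicate 4. Without the NR-treated male Alport replicate 1, the same number of 9 passed in males, with 3.14 in place of 4.36 for Col1a1 and -0.18 in place of 0.44 for Col5a2 (log2). These comparisons share their mice with those above, so the values are given side by side only.

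In male controls 9 of 10 collagens had positive estimates with NR, with a median log2 fold change of 0.64. In female controls 5 of 10 did, with a median of -0.04. The medians of all genes were -0.00 and -0.01. The few calls were of other genes in males than in females, which was not tested as a difference. In males Col1a2 (log2 0.74, SE 0.15, adjusted p = 0.0252), Col6a1 (0.71, SE 0.14, adjusted p = 0.0265) and Col6a2 (0.64, SE 0.13, adjusted p = 0.0288) rose, 3 of 10 where 3.07% of 14696 genes did. Col1a2 was at 39.5, 42.6, 38.2 and 28.3 CPM with NR against 22.4, 24.3, 18.4 and 24.5 CPM on vehicle, and Col6a1 at 16.9, 15.0, 18.1 and 13.7 against 8.98, 9.83, 8.38 and 11.8 CPM. Those genes, Col5a1 and Col15a1 did not overlap between the groups, 5 of 10 where 7.35% of all genes were higher without overlap. Col5a1 (0.75, adjusted p = 0.0868) and Col15a1 (0.63, adjusted p = 0.127) did not pass.

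The male calls changed with the omission of single mice. Without the NR-treated male control replicate 1 or 3 or the vehicle-treated replicate 1 or 2 none passed, and without the vehicle-treated replicate 3 or 4 1 did. Without the NR-treated replicate 4, Col5a1 passed as well (0.88, adjusted p = 0.0306). In a fit of all 32 mice none passed. The NR-treated male controls had more endothelial marker RNA (441 to 541 CPM against 326 to 356 CPM) and more fibroblast and pericyte marker RNA (176 to 214 against 127 to 138 CPM) than those on vehicle, and less of the proximal tubule markers (11253 to 16441 against 17657 to 19523 CPM). Macrophage marker sums were 91.5 to 199 CPM with NR and 80.6 to 104 CPM on vehicle. Of the endothelial markers 7 of 8 rose, of the fibroblast and pericyte markers 4 of 9 (Pdgfra 1.13, Pdgfrb 0.81, Tagln 0.65, Fbln1 1.17, log2) and of the macrophage markers 3 of 10 (C1qa, C1qb and Cd14, the last by 1.09). Fat cell marker sums were 20.6 to 53.3 CPM with NR and 13.9 to 18.3 CPM on vehicle. In female controls they were 23.5 to 52.1 and 10.2 to 18.3 CPM. The 1 fat cell marker that could be tested rose in both sexes (log2 1.09 in males and 1.15 in females). The part of these cell types in the collagen values was not tested.

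Other matrix genes that rose in the NR-treated male controls were Lox (log2 2.26) and Loxl1 (0.92) for crosslinking, Dcn (1.42), Bgn (0.69) and Sparc (0.80) among the fibril partners, Timp1 (2.92) and Timp2 (0.73) among the turnover genes, and Col12a1 (0.93). Col6a4 (-2.21) and Col6a6 (-2.77), further chains of the collagen VI family, and Plod2 (-0.56) fell. Col6a4 had at most 16 reads (0.690 CPM) in any of the 32 mice. Col6a6 was as low as 0.0371 CPM, so both values rest on few reads. In female controls none of these matrix genes that could be tested passed. There Col27a1 (-1.05), Col8a1 (-0.42) and P3h2 (-0.39) fell, and of the 10 collagens Col5a3 alone rose (0.99, SE 0.24, adjusted p = 0.0317), from 1.39 to 1.93 CPM on vehicle to 4.40, 3.92, 3.29 and 2.20 CPM with NR. This is 1 of 10, where 3.91% of 14951 genes rose. It was also the only one higher without overlap, where 8.53% of all genes were. The call was lost without the NR-treated female control replicate 1, 2 or 3 or the vehicle-treated replicate 2, 3 or 4. Over both sexes Col5a3 rose (0.69, SE 0.18, adjusted p = 0.0211), where 5.46% of 15379 genes did, and the next lowest adjusted p was that of Col1a2 (0.37, adjusted p = 0.0788). None of the 6 chain ratios passed in NR-treated controls, the largest difference being that of Col5a2 to Col5a1 (-0.59, exact permutation test, adjusted p = 0.0906), which passed only without the NR-treated male control replicate 4 (-0.73, adjusted p = 0.0411 in the exact permutation test).

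Whether NR acted differently in Alport than in control mice was tested as a further interaction. None of the 10 collagens and no gene passed in males (0% of 15800, where 1398 had an unadjusted p under 0.05 and DESeq2 called 18) or in females (0% of 16064, where 1521 had an unadjusted p under 0.05 and DESeq2 called 30). The lowest adjusted p was that of Col5a3 in each sex, with -1.61 (SE 0.40, adjusted p = 0.400) in males and -1.72 (SE 0.47, adjusted p = 0.376) in females. Without the NR-treated male Alport replicate 1, 9 of 10 collagens passed in males, where 4.54% of 15942 genes were lower, from -2.65 (Col1a1, adjusted p = 0.0142) to -1.85 (Col6a3, adjusted p = 0.00607), and Col5a2 (-0.67, adjusted p = 0.219) did not. That mouse stood out by its collagen level, so here too the share of all genes is not a like yardstick.

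The genes whose levels followed 3 of these collagens most closely were found by the root mean square difference of log2 CPM, each gene centred over the 32 mice, among 16459 genes. The 10 collagens were left out of this ranking and are given after it. For Col1a1 the closest were Vcam1, an adhesion protein (0.43), Mmp2 (0.47), Aoc1, an amine oxidase (0.47), Scube1 (0.50) and Lyz2, lysozyme of macrophages (0.51), where the median gene was at 2.07. For Col3a1 they were Lyz2 (0.31), Cd44, a hyaluronan receptor (0.40), Scube1 (0.41), Mmp2 (0.42) and Fn1 (0.44), with a median of 1.78. For Col15a1 they were Fn1 (0.30), Cpxm1 (0.32) and the macrophage genes Adgre1 (0.37), Cx3cr1 (0.39) and Mgl2 (0.40), with a median of 1.59. Among the collagens themselves only differences from these 3 genes were computed, so other pairs may lie closer together. The smallest of those computed were Col1a2 from Col15a1 (0.34) and Col3a1 from Col15a1 (0.43). Col5a2 was farthest from all 3 (1.89 from Col1a1, 1.64 from Col3a1 and 1.39 from Col15a1). The mice share genotype and sex groups, so these values describe the pattern over the groups as much as that between mice.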

How the data were processed

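Poly(A) RNA of kidney cortex from 32 mice was sequenced. The authors processed the reads with BioJupies and deposited raw counts per gene symbol and mouse, which were used here. A further deposited table, in which the authors gave log10(CPM + 1) of these counts, was not used. The submitters' processing notes name build mm10. The aligner, its version, the annotation and the strand of counting are not given in the sources used here. Coordinates and exon lengths came from the GENCODE annotation of mm10, matched by symbol.

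Counts were analysed with edgeR 4.0.16 under R 4.3.3 (quasi-likelihood fit, TMM scaling with factors of 0.828 to 1.25, filterByExpr with a minimum count of 10). P-values were adjusted by Benjamini-Hochberg over all genes tested and called under 0.05. Each sex was fitted alone, as in the study, the comparisons over both sexes had sex as a term, and interactions were fitted over 16 mice, that of sex and genotype with a limit of 2-fold. Chain ratios were compared by exact permutation of mice within sex. All 48 pairs of mice within groups differed beyond sampling noise (chi-square over degrees of freedom 7.96 or more), and the edgeR script was tested on simulated data. Alternatives were DESeq2 1.42.0, limma 3.58.1 (voom), RLE size factors, a stricter and no filter on low counts, a fit of all 32 mice, the replicate number as a block, and the omission of each mouse.

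The members, lists and tests were chosen with earlier results of these data known. Besides the 10 collagens, the text names up to 2 genes of each list with the largest rise and 2 with the largest fall in Alport mice of both sexes. It also names some, but not all, of the list genes called in an NR comparison, and the 5 genes most alike to Col1a1, Col3a1 and Col15a1. Col4a3, Col4a4, Ddx3y, Adipoq and Lep served as checks. Genes of the lists called without the NR-treated male Alport mouse replicate 1 were named after their values were seen. The calls of 1 marker list are not reported here.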

Additional observations from a re-analysis of the deposited data

Results flagged for a closer look

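The 10 collagens and 6 chain ratios were looked at in 8 groups of 4 mice each, 128 groups in all, for a highest or lowest mouse whose gap to its nearest neighbour took up most of the group's range (Dixon's 95% limit). This was so in 8 of 128 groups, which is near the 1 in 20 that chance alone gives. Flags that come from the same mouse are not independent. Col1a1 was at 25.7 CPM and Col15a1 at 20.7 CPM in the NR-treated male control replicate 2, above the other 3 mice of that group (8.49 to 10.9 and 10.2 to 11.2 CPM), and the log2 ratio of Col1a2 to Col1a1 was lowest there, at 0.73. Col6a1 was at 143 CPM and Col6a2 at 105 CPM in the NR-treated male Alport replicate 1, where the other mice had at most 41.3 and 33.7 CPM. Col15a1 was low, at 13.0 CPM, in the NR-treated female control replicate 2. The log2 ratio of Col3a1 to Col1a1 was high, at 0.46, in the NR-treated male Alport replicate 2, and that of Col5a3 to Col5a1 low, at -2.15, in the NR-treated female Alport replicate 4.

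The Alport difference on vehicle differed between the sexes for Col1a2 (log2 -1.14, female minus male) and Col5a2 (-1.01), by edgeR's test of the interaction.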

How the results depend on the processing

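Counts of calls among the 10 collagens that moved by over 1.5 times were these. For NR in male controls (3 in the report) DESeq2 gave 5, a replicate block 0 and a fit of all 32 mice 0, and omissions of 1 mouse 0 to 4. For NR in female controls (1) the replicate block and all 32 mice gave 0, and omissions 0 to 1. For NR in controls of both sexes (1) DESeq2 gave 3, the replicate block and all 32 mice 0, and omissions 1 to 2, the 2 without the female vehicle-treated control replicate 3. For NR in Alport mice of both sexes (0) DESeq2, limma-voom and all 32 mice gave 1, Col5a3, and omissions 0 to 8. In male Alport mice (0) omissions gave 0 to 8. For NR-treated Alport mice against controls, the replicate block gave 3 in females in place of 10, and omissions 6 to 10 in females and 5 to 9 in males. For sex in controls all 32 mice gave 1 in place of 9. For the sex-genotype interaction (2) limma-voom gave 1, RLE size factors 0, at least 10 counts in every mouse 1 and all 32 mice 0, and omissions 0 to 2. For the NR-genotype interaction in males (0) omissions gave 0 to 9. Of the 6 chain ratios, omissions left 4 to 5 calls in Alport mice on vehicle (4 in the report) and 0 to 1 with NR in Alport and in control mice (0).

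Of single genes and ratios, the interactions of NR with sex and genotype aside, 32 of 1488 values changed sign when a mouse was left out, none of them called, and 0 of 894 under the other alternatives. With NR in female controls, omissions gave log2 ranges of -0.14 to 0.31 for Col1a1, -0.09 to 0.13 for Col1a2, -0.03 to 0.57 for Col3a1, -0.28 to 0.03 for Col6a1 and -0.24 to 0.03 for Col6a3. Col5a2 had -0.18 to 0.64 in NR-treated Alport against control males, and Col3a1 -0.09 to 0.50 between the sexes. Ratios had -0.04 to 0.14 for Col5a3 to Col5a1 in Alport mice, -0.09 to 0.00 for Col6a2 to Col6a1 and -0.15 to 0.02 for Col6a3 to Col6a1 with NR in Alport mice, and -0.06 to 0.14 for Col1a2 to Col1a1, -0.06 to 0.21 for Col3a1 to Col1a1 and -0.07 to 0.03 for Col6a3 to Col6a1 with NR in controls. Causes were not tested.

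Replicate numbers did not pair the mice: of 24 same-numbered pairs 5 had deviations that correlated over 0.1 (-0.167 to 0.261). The replicate block let Col5a2 pass in Alport females (-0.24, adjusted p = 0.0328) and lost the call of Col3a1 in NR-treated Alport against control males (adjusted p = 0.0524). Beside these and the counts above it changed no call. A fit of all 32 mice lost the call of Col5a2 in Alport males on vehicle (adjusted p = 0.0535). Over all genes, calls for NR in Alport mice were 0, 62 by DESeq2 and 88 with all 32 mice in males, 75, 728 and 253 in females, and 239, 902 and 1016 over both sexes (128 with the block). For NR in controls they were 666, 1641 by DESeq2 and 309 with the block in males, 924, 1493 and 371 in females (18 with all 32 mice), and 1722 over both sexes, 713 with the block and 1037 with all 32 mice. Those for NR-treated Alport mice against controls were 3199 and 6819 with all 32 mice in males and 3615 and 2292 with the block in females, for sex in controls 4756 and 2799 with all 32 mice, and for the sex-genotype interaction 46, 114 by DESeq2, 28 by limma-voom and 4 with all 32 mice, with 43.5% of calls positive by TMM and 58.3% by RLE. Among the 10 collagens the lowest counts were those of Col5a3, at 37 to 47 reads in vehicle-treated female controls, where their counting error is largest. Some genes of the lists had fewer reads.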
